A study of Mus musculus with 12 samples.

Results

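The hepatic stellate cell and myofibroblast markers Acta2, Tagln, Des, Pdgfra, Pdgfrb, Vim, Lrat, Reln and Hgf were examined in mouse liver. These 9 genes were chosen by name from 24296 genes with a symbol in the deposited table. Acta2, Tagln, Des, Pdgfra, Pdgfrb and Vim (6 genes) were taken as markers of activated or mesenchymal cells. Lrat, Reln and Hgf (3 genes) were taken as markers of quiescent stellate cells.

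Liver RNA was sequenced in 12 samples from male C57/BL6N mice, with 3 livers in each of 4 groups, named control, model, silibinin and phloridzin high-dose. In the last 3 of these groups, fibrosis was induced with carbon tetrachloride (CCl4), a hepatotoxin. It was diluted 1:9 by volume in olive oil and injected intraperitoneally 2 times a week over 8 weeks, at 5 mL/kg body weight. From week 5, the silibinin group also received silibinin, the positive control drug, and the phloridzin high-dose group also received phloridzin, a plant flavonoid. The labels call the control livers WT and do not give the phloridzin dose group, which was taken from the study's results. Whether the control mice received olive oil, and the age of the mice, are not given in the sources used here. The labels give each sample a number and a short code without saying which mouse these stand for, so the p-values measure the spread between samples.

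Values were fragments scaled to transcript length and library size (FPKM), and for each gene the FPKM of all transcripts with its symbol were summed in each liver. The steps between values gave library sizes of 105.2 to 109.6 M fragments in control livers and 83.7 to 101.5 M in model livers. Libraries of the silibinin group held 106.7 to 110.9 M and those of the phloridzin high-dose group 98.5 to 104.7 M. A gene was tested where its mean over the 12 livers was at least 0.5 FPKM, which left 13158 genes and all 9 markers. A gene was called DE by limma on log2(FPKM + 1) when its Benjamini-Hochberg adjusted p-value was under 0.05 and its log2 fold change exceeded 1 in either direction. Changes of genes with low values come out smaller on this scale than the ratio of their FPKM.

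Hepatic stellate cells lie in the space of Disse between the sinusoidal endothelium and the hepatocytes, and in the healthy liver they store vitamin A as retinyl esters. After injury they can lose these stores and turn into contractile, collagen-producing myofibroblasts, which are the main source of scar matrix in CCl4 fibrosis. In whole liver RNA, a larger number of such cells and more RNA per cell cannot be told apart.

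The levels of the 9 genes, compared per length in FPKM, ran from Vim with a mean of 25.5 over the 12 livers to Pdgfrb with 1.62. Between them were Reln with 18.9, Lrat with 8.22, Hgf with 6.21, Pdgfra with 5.92, Tagln with 3.49, Acta2 with 2.73 and Des with 1.92 FPKM. In the control group Reln was the highest of the 9, with all 3 livers above those of Vim. The next neighbours in that group, Hgf and Lrat, overlapped, as did each pair of neighbours from Pdgfra through Acta2, Tagln and Des down to Pdgfrb. In the model group Vim and Reln overlapped at the top. Below Reln, Lrat overlapped with Hgf and Hgf with Pdgfra, and a gap separated the lowest Pdgfra value from Tagln, Acta2, Des and Pdgfrb. Reln lay above Lrat without overlap in each of the 4 groups. In the phloridzin high-dose group alone of the 3 CCl4 groups, the 3 Vim values lay above all Reln values.

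**Figure D1:**
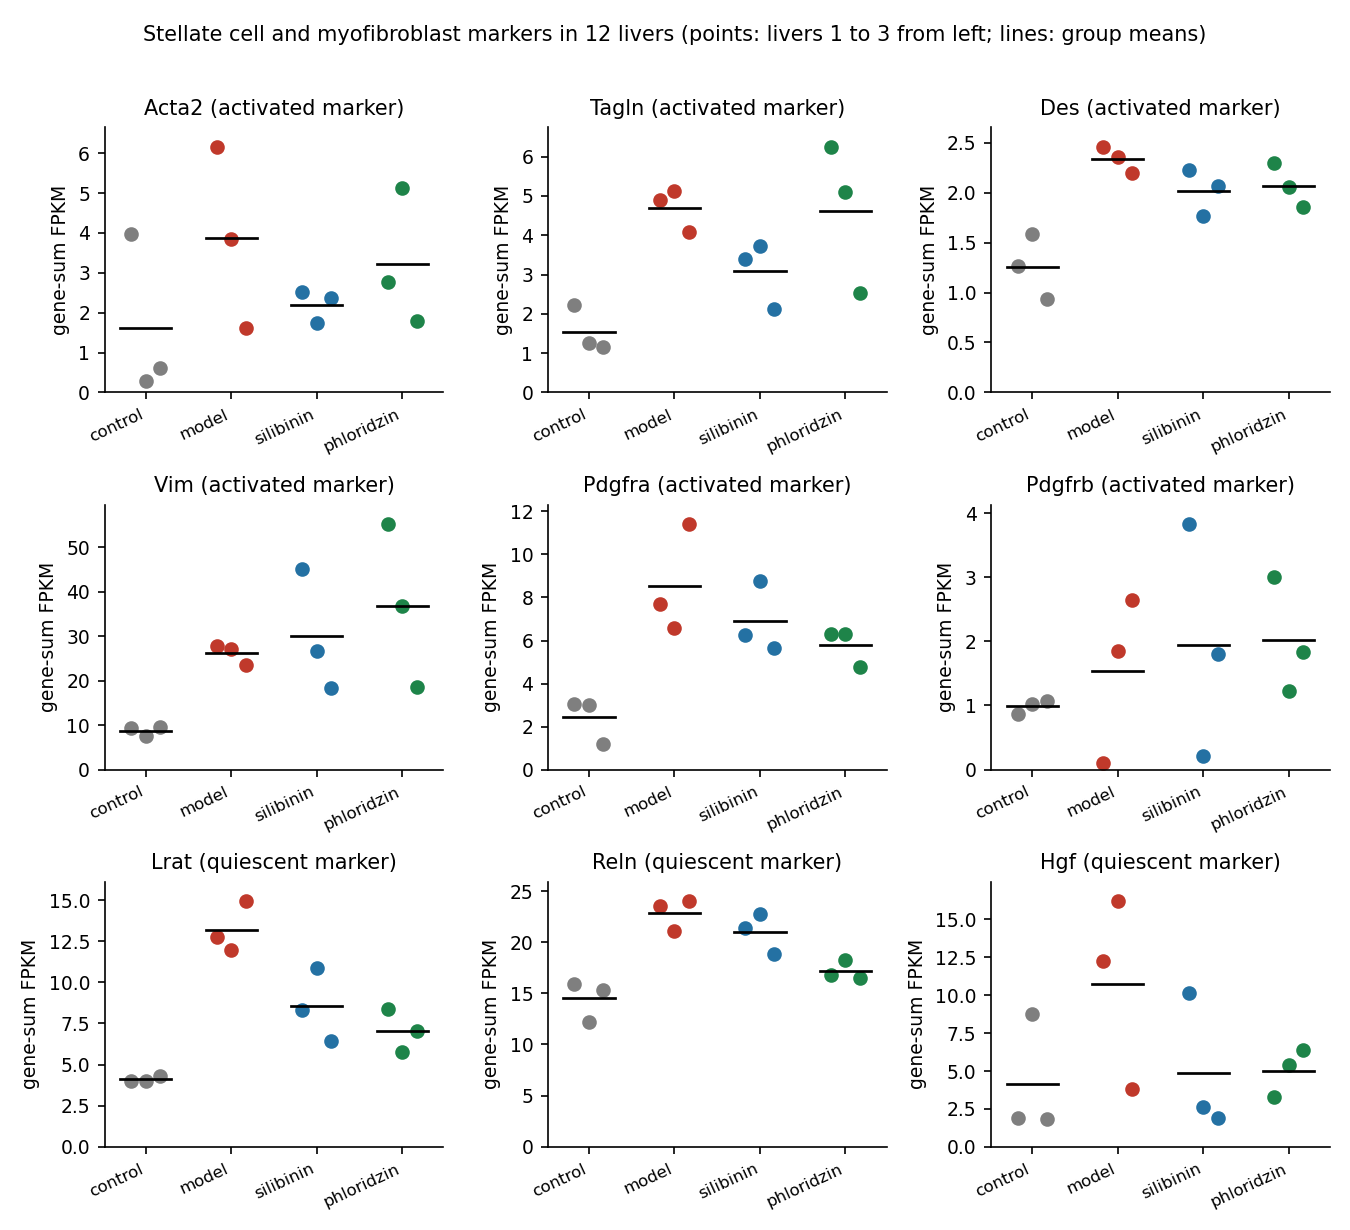
Summed FPKM of each of the 9 genes (vertical axes, each starting at 0) in the 3 livers of each group (points), with the group mean as a line. Lrat separates the model group from the other groups, while Acta2, Pdgfrb and Hgf spread widely between livers of one group.

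Among the contractile genes, Acta2 encodes smooth muscle alpha-actin, the stress fibre actin by which myofibroblasts are usually recognised. The gene lies at chr19:34241090-34255336 on the minus strand (GRCm38) and had 1 transcript in the table. In the control livers Acta2 had 3.98, 0.274 and 0.610 FPKM, and in the model livers 6.15, 3.86 and 1.61. It had 2.52, 1.74 and 2.36 FPKM with silibinin and 2.78, 5.13 and 1.79 with phloridzin. Control replicate 1 was above 2 of the model livers, so that these groups overlapped, and the other control livers were the lowest of all 12. Behind these values stood between 61 and 1092 recovered fragments per liver. Tagln encodes transgelin, an actin-binding protein of smooth muscle and myofibroblasts, and lies at chr9:45929619-45936058 on the minus strand. Its values were 2.22, 1.25 and 1.15 FPKM in control livers and 4.89, 5.12 and 4.08 in model livers. The silibinin livers had 3.39, 3.73 and 2.12 FPKM of Tagln, and the phloridzin livers 6.25, 5.09 and 2.53. All model livers were above all control livers and above all silibinin livers, and the phloridzin livers spread on both sides of the model values. On the opposite strand of Tagln lay 5 overlapping transcripts with a summed mean of 4.67 FPKM, and without stranded reads the fragments of both strands cannot be told apart.

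Des and Vim encode desmin and vimentin, intermediate filament proteins. Desmin is a marker of stellate cells in rodents, and vimentin is shared by mesenchymal cells, endothelial cells and leukocytes. Des, at chr1:75360329-75368579 on the plus strand, ranged from 0.933 to 1.58 FPKM in control livers and from 2.20 to 2.46 in model livers. Its range was 1.76 to 2.23 FPKM with silibinin and 1.86 to 2.30 with phloridzin, so each CCl4 group lay above the control group. Vim, at chr2:13573927-13582826 on the plus strand, had 9.28, 7.50 and 9.61 FPKM in the control livers and 27.7, 27.2 and 23.6 in the model livers. In the silibinin group it had 45.1, 26.7 and 18.4 FPKM, and in the phloridzin high-dose group 55.2, 36.8 and 18.6. All 9 CCl4 livers were therefore above the 3 control livers. Of the drug-treated livers 1 with silibinin and 2 with phloridzin were above all model livers and 1 of each group was below them. The SD was 13.7 FPKM with silibinin and 18.3 with phloridzin, beside 2.25 in the model group. The transcript ENSMUST00000028062 held 89.3% of the Vim sum, and 2 transcripts on the opposite strand had a summed mean of 5.65 FPKM.

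Pdgfra and Pdgfrb encode the receptors of the platelet-derived growth factors, which drive division and migration of stellate cells. Pdgfra, at chr5:75152292-75198215 on the plus strand, had 3.07, 3.02 and 1.19 FPKM in control livers and 7.68, 6.58 and 11.4 in model livers. It had 6.27, 8.78 and 5.64 FPKM with silibinin and 6.32, 6.30 and 4.77 with phloridzin. Each CCl4 liver was above each control liver, and the phloridzin livers were all below the model livers. Pdgfrb, at chr18:61045150-61085061 on the plus strand, had 0.870, 1.02 and 1.07 FPKM in control livers and 0.104, 1.84 and 2.65 in model livers. With silibinin it had 3.83, 0.211 and 1.81 FPKM, and with phloridzin 3.00, 1.23 and 1.83. The control livers lay close together, while model replicate 1 and silibinin replicate 2 were the lowest of the 12, on 47 and 127 fragments. The highest value, in silibinin replicate 1, rested on 2208 fragments.

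Lrat encodes lecithin retinol acyltransferase, the enzyme that forms retinyl esters and the marker most often used for quiescent stellate cells. The gene lies at chr3:82892579-82903973 on the minus strand and had 1 transcript. It had 3.97, 4.01 and 4.31 FPKM in the control livers and 12.7, 11.95 and 14.9 in the model livers. The silibinin livers had 8.29, 10.9 and 6.42 FPKM and the phloridzin livers 8.37, 5.75 and 7.03. Every drug-treated liver was thus below every model liver and above every control liver. Reln encodes reelin, a secreted glycoprotein that stellate cells of the liver express, and lies at chr5:21884454-22344702 on the minus strand. Its values were 16.0, 12.2 and 15.4 FPKM in control livers and 23.5, 21.1 and 24.0 in model livers. In the silibinin group they were 21.4, 22.8 and 18.9 FPKM, and in the phloridzin high-dose group 16.8, 18.3 and 16.5. The phloridzin livers lay between the control and the model livers and below all silibinin livers. With 12249 to 23107 fragments per liver, Reln had more fragments than the other 8 genes in each liver.

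Hgf encodes hepatocyte growth factor, a mitogen of hepatocytes made by stellate and other nonparenchymal cells, and lies at chr5:16553495-16620152 on the plus strand. In the control livers it had 1.89, 8.73 and 1.84 FPKM, and in the model livers 12.2, 16.2 and 3.84. With silibinin it had 10.2, 2.63 and 1.89 FPKM, and with phloridzin 3.30, 5.37 and 6.41. The groups overlapped throughout, with control replicate 2 and silibinin replicate 1 both above model replicate 3. The sum combined transcripts of unlike pattern. The coding transcript ENSMUST00000196645, with 48.5% of the sum, had 0.595, 5.13 and 0.850 FPKM in control livers and 6.26, 8.15 and 1.24 in model livers. The retained-intron transcript ENSMUST00000195957 had 0.553, 0.604 and 0.564 FPKM in control livers and 3.65, 4.13 and 1.88 in model livers. Of this transcript the drug-treated livers had between 0.724 and 1.41 FPKM, and all 3 model livers were above the other 9. This transcript was picked after its values were seen and was not tested.

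**Figure D2:**
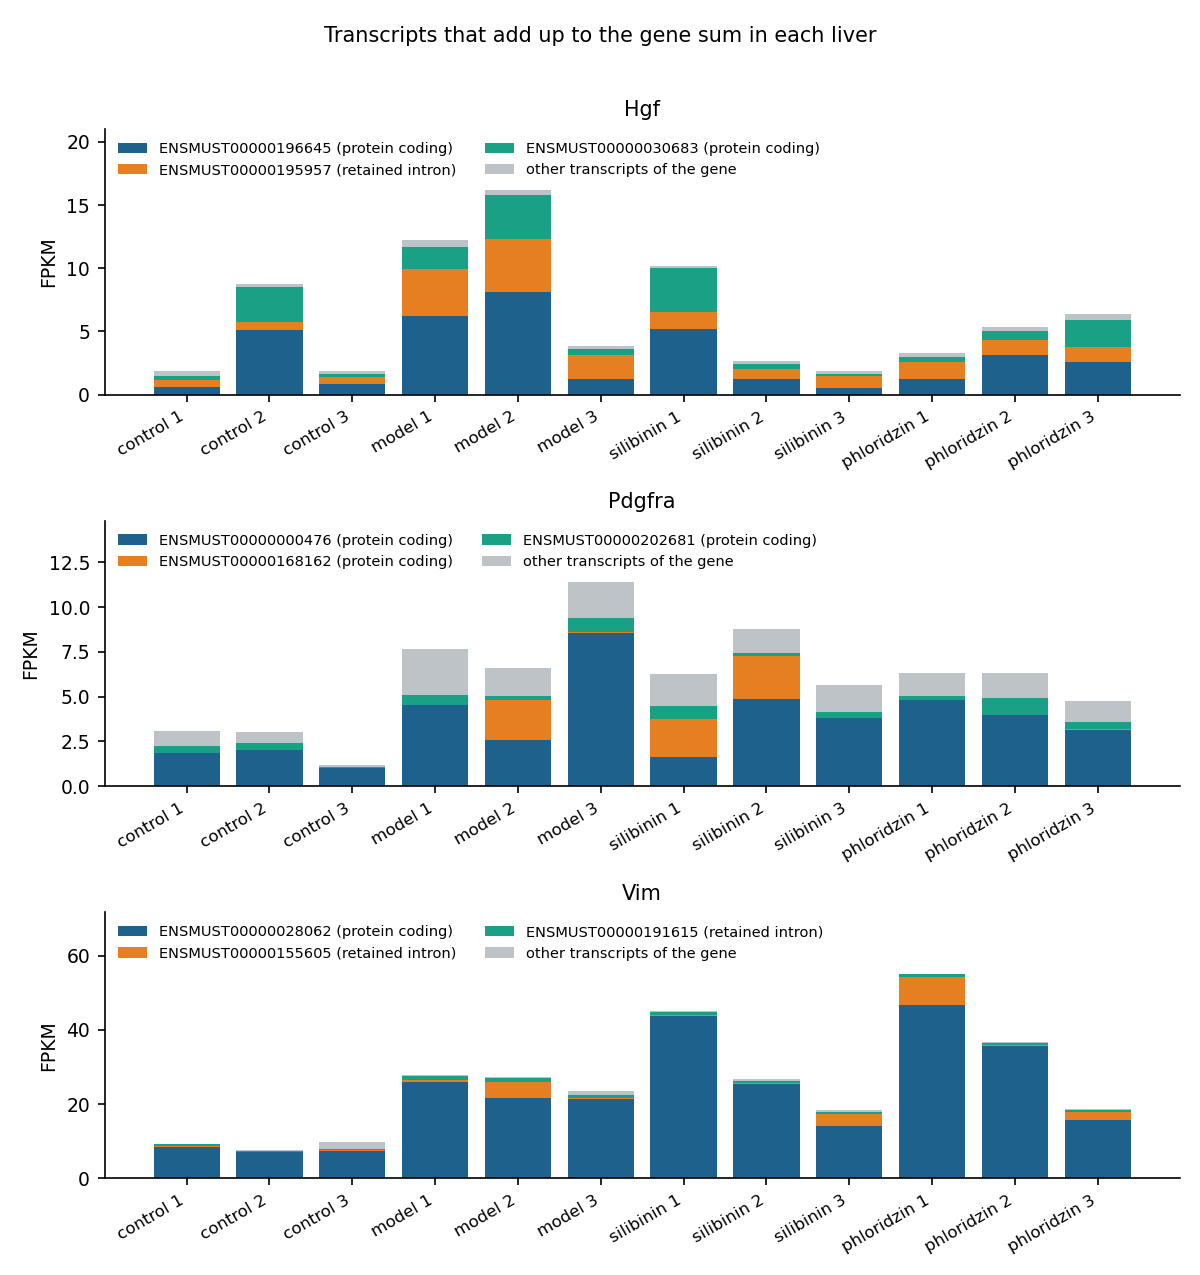
FPKM of the single transcripts of Hgf, Pdgfra and Vim, stacked for each of the 12 livers (vertical axes in FPKM, starting at 0). The liver-to-liver spread of Hgf lay mostly in its coding transcripts, and 1 transcript carried most of Vim in each liver.

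The promoters of Acta2, Lrat and Reln are printed because these genes stand for contractile, retinoid-storing and reelin-secreting cells, and their short motifs differ. Promoter sequences from RefSeq (build GRCm38.p6), from 250 bases before to 50 bases after the start site, were found for 7 of the 9 genes in 8 entries. Both strands were searched for the CArG box of serum response factor, the same box with at most 1 strong base (G or C) in its centre, the TEAD motif GGAATG, the GC box GGGCGG and the TATA box motif TATAA. Capitals mark each match. The windows are chr19:34255324-34255623 (minus strand) for Acta2, chr3:82903925-82904224 (minus strand) for Lrat and chr5:22344656-22344955 (minus strand) for Reln.
Acta2: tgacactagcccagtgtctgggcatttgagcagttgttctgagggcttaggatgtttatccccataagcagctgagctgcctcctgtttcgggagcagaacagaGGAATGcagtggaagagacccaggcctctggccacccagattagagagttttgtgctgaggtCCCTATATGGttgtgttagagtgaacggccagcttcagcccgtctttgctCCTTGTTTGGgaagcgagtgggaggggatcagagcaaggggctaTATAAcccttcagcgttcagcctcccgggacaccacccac
Lrat: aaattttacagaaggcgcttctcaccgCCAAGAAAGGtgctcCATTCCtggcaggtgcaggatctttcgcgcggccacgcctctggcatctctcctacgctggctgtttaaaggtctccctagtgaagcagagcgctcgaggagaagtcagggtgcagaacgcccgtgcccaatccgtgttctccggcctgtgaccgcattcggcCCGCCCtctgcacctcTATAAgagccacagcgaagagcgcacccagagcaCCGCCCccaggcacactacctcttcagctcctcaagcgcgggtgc
Reln: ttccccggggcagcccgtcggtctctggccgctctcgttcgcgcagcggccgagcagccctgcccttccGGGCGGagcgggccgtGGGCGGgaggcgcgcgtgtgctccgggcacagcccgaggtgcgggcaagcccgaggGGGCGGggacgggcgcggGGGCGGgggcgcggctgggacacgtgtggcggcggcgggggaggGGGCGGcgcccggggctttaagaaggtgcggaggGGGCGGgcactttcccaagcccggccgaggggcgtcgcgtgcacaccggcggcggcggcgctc

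Of 32841 mouse promoters of this length, 1.63% held a CArG box, and 0 of the 8 entries of the markers did. The looser box was found in 9.98% of all promoters and in 2 of the 8 entries. In Acta2 it began 84 and 34 bases before the start site, and in Lrat 223 bases before. GGAATG was found in 14.7% of all promoters, and in Acta2 and Lrat, at 146 and 208 bases before the start site. GGGCGG was found in 35.7% of promoters and in 3 of the entries, with 6 matches in Reln between 181 and 13 bases before the start site. TATAA was found in 24.9% of promoters and in 4 of the entries, with a match 29 bases before the start site in Lrat and 32 bases before it in Vim, where matches on both strands overlapped. In Acta2 and Pdgfra the TATAA match lay after the start site. A match is a description of letters in this window and does not show that a factor binds there.

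In order to examine the effect of CCl4, the model group was compared with the control group. Markers of both kinds rose. Lrat increased from 4.10 ± 0.187 to 13.2 ± 1.54 FPKM, Pdgfra from 2.43 ± 1.07 to 8.55 ± 2.53, Vim from 8.80 ± 1.13 to 26.2 ± 2.25 and Tagln from 1.54 ± 0.590 to 4.70 ± 0.545 (mean ± SD, n = 3). These 4 of the 9 genes were DE and upregulated, while 9.42% of the 13158 genes tested were. The log2 fold change in limma was 1.47 (SE 0.18, Benjamini-Hochberg adjusted p = 0.000322) for Lrat and 1.50 (SE 0.27, adjusted p = 0.00232) for Pdgfra. It was 1.48 (SE 0.37, adjusted p = 0.0118) for Vim and 1.19 (SE 0.27, adjusted p = 0.00766) for Tagln by the same test.

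Desmin and reelin passed the adjusted p-value but not the fold change. Their log2 fold changes were 0.57 (SE 0.13) for Des and 0.63 (SE 0.13) for Reln, with Benjamini-Hochberg adjusted p-values of 0.00796 and 0.00411 in limma. By the adjusted p-value alone 6 of the 9 genes were higher, as were 31.1% of all genes tested. The same 6 genes had model livers that were all above the control livers, which held for 45.1% of all genes. Acta2, with 1.62 ± 2.05 FPKM in the control and 3.87 ± 2.27 in the model group, had a log2 fold change of 1.05 (SE 0.51) and an adjusted p of 0.134 in limma with the Benjamini-Hochberg method. Without control replicate 1, the liver with the high Acta2 value, it was 1.65 with an adjusted p of 0.0179, and 5 genes were then DE. Hgf had a log2 fold change of 1.26 (SE 0.64, adjusted p = 0.151) and Pdgfrb of 0.19 (SE 0.51, adjusted p = 0.801) in limma with the Benjamini-Hochberg method, so neither passed the test. When the leading transcript stood for each gene, Pdgfra was at 1.13 with an adjusted p of 0.0604 and Reln at 1.00 with an adjusted p of 0.00138 in limma, Benjamini-Hochberg.

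The median log2 fold change of the 9 genes was 1.19, that of the activated markers 1.12 and that of the quiescent markers 1.26, beside 0.34 over all genes tested. This quiescent median was the value of Hgf, which did not pass the test. In this comparison 8 of the 9 genes lay above the median of all genes, and Pdgfrb lay below it. The median of all genes moved from 0.34 to -0.01 when FPKM were divided by median-ratio size factors, and the DE genes of the whole table changed from 1240 upregulated and 142 downregulated to 493 and 480. Relative to this shift Lrat rose by 1.06, Pdgfra by 1.13 and Vim by 1.03 on the log2 scale and were still DE. Tagln then had 0.85 (adjusted p = 0.0286), Des 0.28 (adjusted p = 0.136) and Reln 0.18 (adjusted p = 0.340) in limma with the Benjamini-Hochberg method, and Pdgfrb had -0.05.

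**Figure D3:**
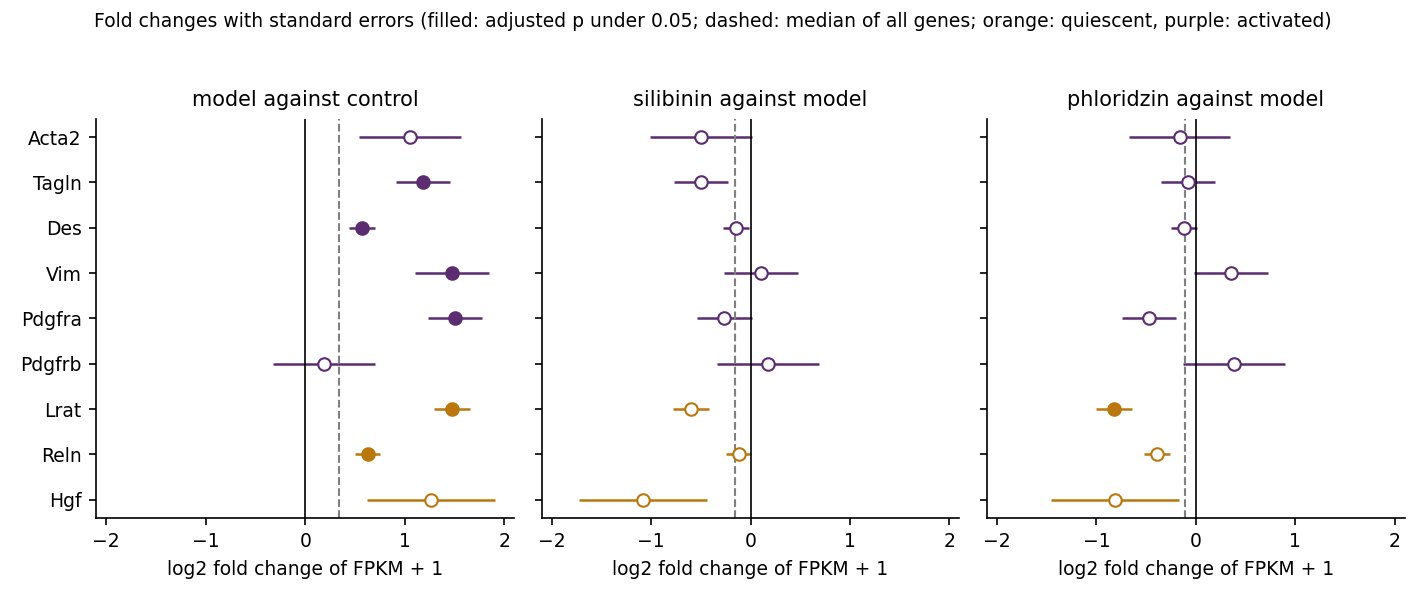
Log2 fold change on the log2(FPKM + 1) scale (horizontal axes) of each of the 9 genes, for model against control livers and for both drug groups against the model livers, with bars of 1 SE from limma, n = 3 livers per group. For model against control livers all 9 points are above 0, with Pdgfrb at 0.19 and at -0.05 after median-ratio scaling.

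Activated and quiescent markers were then set against each other in each liver, as the mean log2(FPKM + 1) of the 6 activated markers minus that of the 3 quiescent markers. No test was made on this difference. The mean of the activated markers was 1.60 in control livers and 2.60 in model livers, and that of the quiescent markers 2.80 and 3.92. The difference was -0.73, -1.61 and -1.26 in the control livers and -1.49, -1.44 and -1.05 in the model livers. The model values lay within the range of the control values. In the silibinin livers the difference was -1.01, -1.08 and -0.66, and in the phloridzin livers -0.30, -0.55 and -1.15. The quiescent markers had means of 3.32 with silibinin and 3.24 with phloridzin, below the model group, and the activated markers had 2.41 and 2.58. The group means of the difference were -1.20 ± 0.44, -1.33 ± 0.24, -0.92 ± 0.22 and -0.67 ± 0.44 (control, model, silibinin, phloridzin; SD, n = 3), and 1 silibinin and 1 phloridzin liver lay within the range of the model livers. With Acta2 and Tagln alone as activated markers the 4 means were -1.58, -1.59, -1.49 and -1.03.

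**Figure D4:**
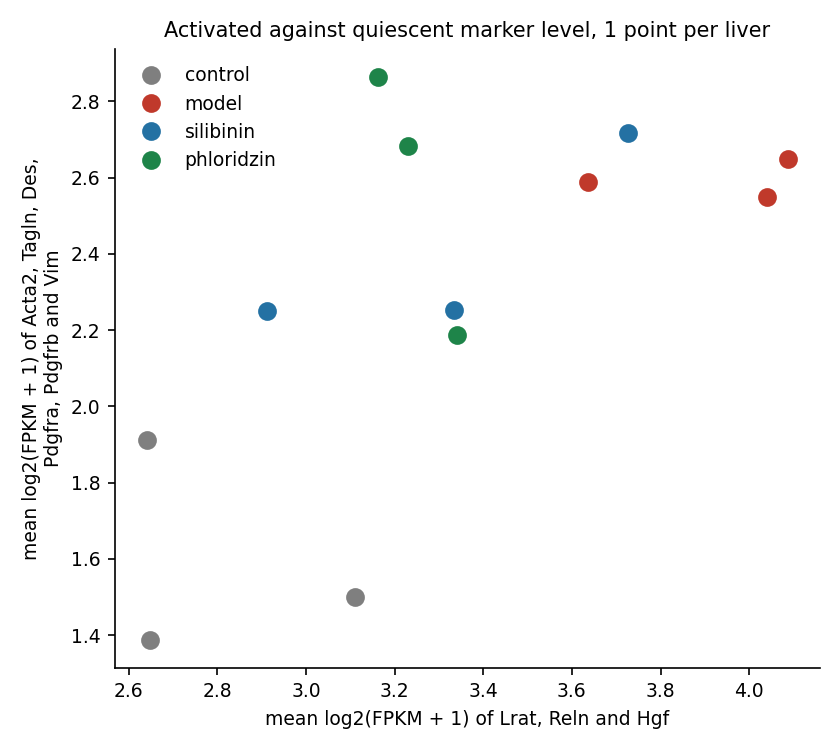
Mean log2(FPKM + 1) of the 6 activated markers (vertical axis) against that of the 3 quiescent markers (horizontal axis), with 1 point per liver and colours for the 4 groups. The model livers lie above and to the right of the control livers, and 4 of the 6 drug-treated livers lie at quiescent values between the control and the model livers.

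Silibinin was then compared with CCl4 alone to examine what the positive control drug did to these genes. The level of Lrat was 8.54 ± 2.25 FPKM with silibinin and 13.2 ± 1.54 in the model group, and Tagln was at 3.08 ± 0.848 and 4.70 ± 0.545 FPKM. None of the markers passed the test. In limma 0 of the 9 genes were DE, where 3.25% of all genes were downregulated, with 1 gene at an unadjusted p under 0.05 and 0 DE by voom on recovered fragments. That gene was Lrat, with a log2 fold change of -0.60 (SE 0.18) and a Benjamini-Hochberg adjusted p of 0.0527. Tagln had -0.50 (adjusted p = 0.259), Acta2 -0.50 (adjusted p = 0.570) and Hgf -1.08 (adjusted p = 0.306) in limma with the Benjamini-Hochberg method. Lrat and Tagln were lower in all silibinin livers than in all model livers, 2 of 9 genes, beside 27.8% of all genes. Vim, with 30.1 ± 13.7 FPKM against 26.2 ± 2.25, had 0.10, Des -0.15, Pdgfra -0.26, Pdgfrb 0.17 and Reln -0.12 on the log2 scale. The median was -0.26 over the 9 genes and -0.15 over all genes, which became 0.01 over all genes after median-ratio scaling. The DE genes of the whole table then changed from 98 upregulated and 428 downregulated to 188 and 237, and Lrat had -0.39 with an adjusted p of 0.119 in limma, Benjamini-Hochberg.

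Phloridzin was compared with CCl4 alone in the same way, against the same 3 model livers. Lrat was at 7.05 ± 1.31 FPKM beside 13.2 ± 1.54 in the model group, and Reln at 17.2 ± 0.954 FPKM beside 22.9 ± 1.57. Lrat had a log2 fold change of -0.83 (SE 0.18) with a Benjamini-Hochberg adjusted p of 0.0149 in limma. It passed the adjusted p-value but not the fold change, and was the only 1 of the 9 genes to do so, beside 10.4% of all genes lower by the adjusted p-value alone. By both criteria 0 of the 9 genes were DE in limma, beside 2.92% of all genes downregulated, with 2 genes at an unadjusted p under 0.05 (Lrat and Reln) and 0 DE by voom. Reln had -0.39 (SE 0.13, adjusted p = 0.0704) in limma with the Benjamini-Hochberg method. Lrat, Reln and Pdgfra were lower in all phloridzin livers than in all model livers, 3 of 9 genes beside 22.4% of all genes. The contractile genes did not pass the test, with a log2 fold change of -0.16 for Acta2 and -0.08 for Tagln, and Vim had 0.35 (adjusted p = 0.581 in limma, Benjamini-Hochberg). Pdgfra had -0.47, Des -0.12, Pdgfrb 0.38 and Hgf -0.81 on the log2 scale, with adjusted p-values from 0.298 upwards.

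The median log2 fold change with phloridzin was -0.16 over the 9 genes, -0.10 over the activated and -0.81 over the quiescent markers, beside -0.11 over all genes. This quiescent median was the value of Hgf, whose groups overlapped (adjusted p = 0.455 in limma, Benjamini-Hochberg). With silibinin the activated markers had a median of -0.20 and the quiescent markers of -0.60, the value of Lrat. Over 16 quiescent stellate cell markers outside the 9 genes the median was -0.15 with phloridzin and -0.13 with silibinin. Over all genes it was -0.11 and -0.15. These comparisons share the model livers. Under median-ratio scaling the median of all genes was 0.03 in the phloridzin comparison, and the DE genes changed from 79 upregulated and 384 downregulated to 140 and 238. Lrat then had -0.65 with an adjusted p of 0.0205 in limma with the Benjamini-Hochberg method, and Reln -0.21 with 0.313.

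The drugs were also compared with each other directly. In limma 0 of the 9 genes were DE between the phloridzin high-dose group and the silibinin group, with 0 at an unadjusted p under 0.05 and 0 DE by voom, and 0.0228% of all genes (3 of 13158) were. Reln came nearest, with 17.2 FPKM with phloridzin and 21.0 with silibinin, a log2 fold change of -0.27 (SE 0.13) and a Benjamini-Hochberg adjusted p of 1. Lrat had -0.23 (SE 0.18), Tagln 0.42 (SE 0.27), Vim 0.25 (SE 0.37) and Acta2 0.33 (SE 0.51). The effects of the drugs on these genes were not shown to differ, and the SEs of Acta2, Pdgfrb (0.51 each) and Hgf (0.64) were the widest.

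To see which markers still differed from untreated liver under drug, both drug groups were compared with the control livers, which these comparisons share. Pdgfra and Vim were DE and upregulated with silibinin, and Pdgfra, Vim and Tagln with phloridzin. These were 2 of 9 genes beside 1.74% of all genes, and 3 of 9 beside 2.74%. With silibinin the log2 fold change was 1.24 (SE 0.27, adjusted p = 0.0297) for Pdgfra and 1.58 (SE 0.37, adjusted p = 0.0384) for Vim in limma with the Benjamini-Hochberg method. By the adjusted p-value alone Lrat with 0.88 (adjusted p = 0.0235) and Reln with 0.51 (adjusted p = 0.0474) were higher too, which made 4 of 9 genes beside 4.59% of all genes in limma, Benjamini-Hochberg. With phloridzin it was 1.04 (SE 0.27, adjusted p = 0.0447) for Pdgfra, 1.83 (SE 0.37, adjusted p = 0.0180) for Vim and 1.11 (SE 0.27, adjusted p = 0.0360) for Tagln by the same test. Lrat had 0.65 (adjusted p = 0.0541) and Reln 0.24 (adjusted p = 0.285) with phloridzin in limma, Benjamini-Hochberg.

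The calls were also made with each liver left out. With silibinin 0 genes were DE when any 1 control liver or silibinin replicate 1 or 2 was left out, 1 was DE without any 1 model liver or phloridzin replicate 2, and 3 were DE without silibinin replicate 3. With phloridzin 0 genes were DE without control replicate 1, control replicate 2 or phloridzin replicate 2, and 1 was DE without control replicate 3, model replicate 2, silibinin replicate 1 or phloridzin replicate 1. It was 2 without model replicate 1 or 3 or silibinin replicate 2 or 3. Where Vim was no longer DE in these fits, its log2 fold change was between 1.25 and 1.64 with silibinin and between 1.73 and 1.87 with phloridzin. Pdgfra was at 0.74 with phloridzin without control replicate 3. Leaving out a liver that was not compared changed the adjusted p alone, as for Vim with silibinin (1.58, adjusted p = 0.0557 in limma, Benjamini-Hochberg) without model replicate 1. After median-ratio scaling the median of all genes moved from 0.16 to -0.03 for silibinin livers and from 0.18 to -0.03 for phloridzin livers. The DE genes then changed from 229 upregulated and 32 downregulated to 142 and 57 with silibinin, and from 360 and 38 to 178 and 64 with phloridzin. Pdgfra (1.06, adjusted p = 0.0442) was the 1 marker DE with silibinin and Vim (1.56, adjusted p = 0.0281) the 1 with phloridzin in limma with the Benjamini-Hochberg method. Vim then had 1.34 with silibinin (adjusted p = 0.0527), and with phloridzin Tagln had 0.92 (adjusted p = 0.0550) and Pdgfra 0.83 (adjusted p = 0.0855) by limma with the Benjamini-Hochberg method.

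Genes that act with the markers were then counted in lists, leaving out the 9 markers, first for model livers against control livers, where 9.42% of all genes tested were upregulated, and 3.75% after median-ratio scaling. No list was tested against these shares, and a low count in a short list cannot be told from them. Of the platelet-derived growth factors and related genes, 3 of 4 tested rose (median log2 fold change 1.10). They were the ligands Pdgfb (1.47, adjusted p = 0.000281), Pdgfc (1.13, adjusted p = 0.00684) and Pdgfa (1.07, adjusted p = 0.00232) in limma with the Benjamini-Hochberg method, and after median-ratio scaling Pdgfb alone was DE. Pdgfra, itself a marker, was the most abundant gene of that list. In the HGF axis the plasminogen activators Plat (1.84) and Plau (1.70) rose, and Spint2 was the most abundant with a mean of 53.3 FPKM. After scaling Plat and Plau were DE again, and Met, the receptor of HGF, was downregulated. The receptors and adaptor of reelin, Vldlr, Lrp8 and Dab1, were under the filter on low values, so that 0 genes of that list were tested beside Reln. In the retinoid list 5 of 16 genes rose, among them the lipase Pnpla3 (1.50) and the retinoic acid hydroxylase Cyp26b1 (1.45), with 3 up and 1 down after scaling. Rbp4, the plasma carrier of retinol, was the most abundant of that list with a mean of 2287 FPKM.

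Of contractile and cytoskeletal genes beside the markers, 8 of 21 were upregulated (median 0.81) and 4 after scaling. The largest log2 fold changes were those of Tagln2 (2.00), Tpm4 (1.89), Actg1 (1.88) and Flna (1.71), and Actb was the most abundant with a mean of 307.0 FPKM. Of the intermediate filament genes beside Vim and Des, 1 was tested, Nes (0.84, adjusted p = 0.000960 in limma, Benjamini-Hochberg), which passed the adjusted p-value but not the fold change. Against model livers it had -0.52 with silibinin (adjusted p = 0.0220) and -0.63 with phloridzin (adjusted p = 0.0101) by the same limma test with Benjamini-Hochberg adjustment. Among regulators and targets of SRF, MRTF and YAP, 4 of 11 rose, Egr1 (2.18), Cyr61 (1.65), Tead1 (1.34) and Mkl1 (1.15), with 2 after scaling. Yap1 was the most abundant of them with 22.6 FPKM. Of transcription factors known in stellate cells 3 of 14 rose, Klf6 (2.76), Zeb2 (2.19) and Zeb1 (1.46), and as many after scaling. Klf6, an early gene of stellate cell activation and the most abundant of the list, had 3.23 FPKM in the control and 28.0 in the model group.

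Some of these partner genes fell with the drugs compared with the model group. Klf6 fell by 1.90 on the log2 scale with silibinin (adjusted p = 0.000200) and by 1.80 with phloridzin (adjusted p = 0.000296), to 6.68 and 7.28 FPKM, in limma with the Benjamini-Hochberg method. Actg1 fell by 1.44 and by 1.24, Egr1 by 1.06 and by 1.39, Zeb2 by 1.04 and by 1.39, and Tpm1 by 1.15 and by 1.02. Cyp26b1, which breaks down retinoic acid, fell by 1.03 with silibinin and by 1.31 with phloridzin, from 4.98 to 1.93 and 1.40 FPKM. Tpm4 fell by 1.14 with silibinin and had -0.93 with phloridzin (adjusted p = 0.0226 in limma, Benjamini-Hochberg). Bco1, which cleaves carotenoids to retinal, fell by 1.15 with phloridzin and had -0.96 with silibinin (adjusted p = 0.0438 in limma, Benjamini-Hochberg). After median-ratio scaling Klf6 and Actg1 were still DE with both drugs, Egr1, Zeb2 and Cyp26b1 passed with phloridzin and not with silibinin, and Tpm1, Tpm4 and Bco1 passed with neither. Between the drugs, before scaling, Egr1 had -0.33, Zeb2 -0.34 and Cyp26b1 -0.27 (adjusted p = 1 each in limma, Benjamini-Hochberg), so no difference between the drugs was shown for them. The counts of downregulated genes were 1 and 2 of 16 in the retinoid list with silibinin and phloridzin, and 3 and 2 of 21 among contractile genes. They were 1 of 11 with each drug for SRF, MRTF and YAP, and 2 of 14 with each drug for the transcription factors, where 3.25% and 2.92% of all genes were downregulated. After scaling 1 gene with each drug was left among contractile genes, and 1 and 2 among the transcription factors. With phloridzin 1 was left each in the retinoid list and among SRF, MRTF and YAP genes. Before scaling 0 of 4 were downregulated with each drug among the platelet-derived growth factors, with 2 at an unadjusted p under 0.05 each in limma. By the Benjamini-Hochberg adjusted p-value alone Pdgfb was lower with silibinin (-0.75, adjusted p = 0.0172) and with phloridzin (-0.81, adjusted p = 0.0134) in limma, and Pdgfa with silibinin (-0.75, adjusted p = 0.0280).

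Lists of cell type markers in whole liver were read beside these results, and their part in the results was not tested. For model against control livers their counts stand beside the same shares of all genes, 9.42% upregulated and 3.75% after scaling. Against model livers 3.25% of all genes were downregulated with silibinin and 2.92% with phloridzin, and against control livers 1.74% and 2.74% were upregulated. Of markers of quiescent stellate cells outside the 9 genes, 2 of 16 rose in model livers compared with control livers, among them Cygb (1.13), and the median of 0.36 was near that of all genes. Their summed FPKM was 190.4, 206.2 and 224.5 in the control livers and 208.6, 239.9 and 253.0 in the model livers, with Dcn the most abundant at 85.7. With silibinin 1 gene of the list fell compared with the model group, Angptl6 (by 1.00, and not after scaling), and with phloridzin 0 did in limma, with 4 at an unadjusted p under 0.05. Of activated myofibroblast markers outside the 9 genes, 14 of 17 rose (median 1.42), and 11 after scaling. They were led by the fibrillar collagens Col1a1 (4.35) and Col3a1 (3.75), the proteoglycan Lum (2.54) and osteopontin, Spp1 (1.94). Compared with the control group 8 of the 17 were upregulated with each drug.

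The levels of Col1a1 differed widely between drug-treated livers. They were 50.9, 49.8 and 16.2 FPKM in the silibinin livers and 85.1, 22.0 and 17.1 in the phloridzin livers, and the lowest of each group was also its lowest Vim liver. Col1a2 had 1.92, 1.96 and 4.12 FPKM with silibinin, highest in the lowest Vim liver, and 3.26, 3.21 and 0.949 with phloridzin, lowest in it. The sum of the myofibroblast list was 536.8, 395.6 and 532.2 FPKM in control livers and 736.1, 699.1 and 597.2 in model livers, with Fn1, which hepatocytes also express, at a mean of 410.0. It was 694.6, 606.4 and 449.8 with silibinin and 547.0, 409.4 and 541.4 with phloridzin. Without Fn1, a sum taken after the values were seen, it was 29.2, 24.3 and 31.0 FPKM for control and 215.8, 205.5 and 238.7 for model livers. The silibinin livers then had 216.7, 229.1 and 92.9 FPKM and the phloridzin livers 307.9, 132.3 and 102.9.

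Markers of other mesenchymal cells were read in the same way. Of portal fibroblast markers 6 of 9 rose in the model group (median 1.07) and 3 after scaling, led by Dpt (1.95), the most abundant at 7.02 FPKM. Their sum was 8.03, 4.65 and 7.33 FPKM in the control livers and 30.8, 26.4 and 27.9 in the model livers. It was 30.9, 37.9 and 14.8 with silibinin and 30.8, 29.8 and 21.5 with phloridzin, and compared with the model group 0 of the 9 were DE in limma with either drug, with 0 at an unadjusted p under 0.05. Of mesothelial markers 1 of 4 rose, Wt1 (1.75), with Msln the most abundant at 2.77 FPKM. Against control livers 3 of these 4 were upregulated with silibinin and 4 with phloridzin (medians 1.16 and 1.29), beside 1.74% and 2.74% of all genes, and 2 and 3 after scaling, in the comparisons where Vim and Pdgfra were DE. Portal fibroblast markers had 4 and 3 of 9 upregulated there. Of vascular smooth muscle and pericyte markers 0 of 6 were DE in limma, with 2 at an unadjusted p under 0.05 (median 0.54), and Abcc9 was the most abundant at 8.53 FPKM. The smooth muscle genes Cnn1, Lmod1 and Actg2 were under the filter. Skeletal muscle markers, of which 7 of 8 were in the table, were all under the filter, with Mylpf the highest at 0.204 FPKM.

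Vimentin is also expressed by macrophages, and 3 of 10 macrophage markers rose in the model group, Gpnmb (4.73), Trem2 (2.78) and Lyz2 (2.16). The summed macrophage markers were 142.4, 247.7 and 202.0 FPKM in the control livers and 381.6, 589.6 and 519.1 in the model livers, with Lyz2 the most abundant at a mean of 201.8. The sum was 462.0, 578.4 and 400.4 with silibinin and 718.5, 647.5 and 367.2 with phloridzin, and in both drug groups replicate 3 was the lowest in this sum and in Vim. In the model group replicate 1 had the lowest sum and replicate 3 the lowest Vim value, and among control livers these were replicates 1 and 2. Against control livers 3 of the 10 were upregulated with silibinin and 5 with phloridzin, and 3 with each after scaling. Of leukocyte markers 1 of 5 rose, Ptprc (1.56), the most abundant of its list at 13.3 FPKM. Of cholangiocyte markers 1 of 4 rose, Spp1, which the myofibroblast list also holds, and Tm4sf4 was the most abundant at 66.2. Sinusoidal endothelial markers had 0 of 9 DE (median 0.17), hepatocyte markers 0 of 8 (median 0.07) and red cell markers 0 of 5 (median -0.31) in limma, with 1, 0 and 1 at an unadjusted p under 0.05. After scaling 1 red cell marker was downregulated, Hba-a1, which was also DE against control livers with silibinin (-1.48) and phloridzin (-1.46), before and after scaling. Clec4g at 27.5 FPKM, Alb at 18380 and Hbb-bs at 396.6 were the most abundant of these lists. No marker listed for any cell type was at 0 in all 12 livers.

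**Figure D5:**
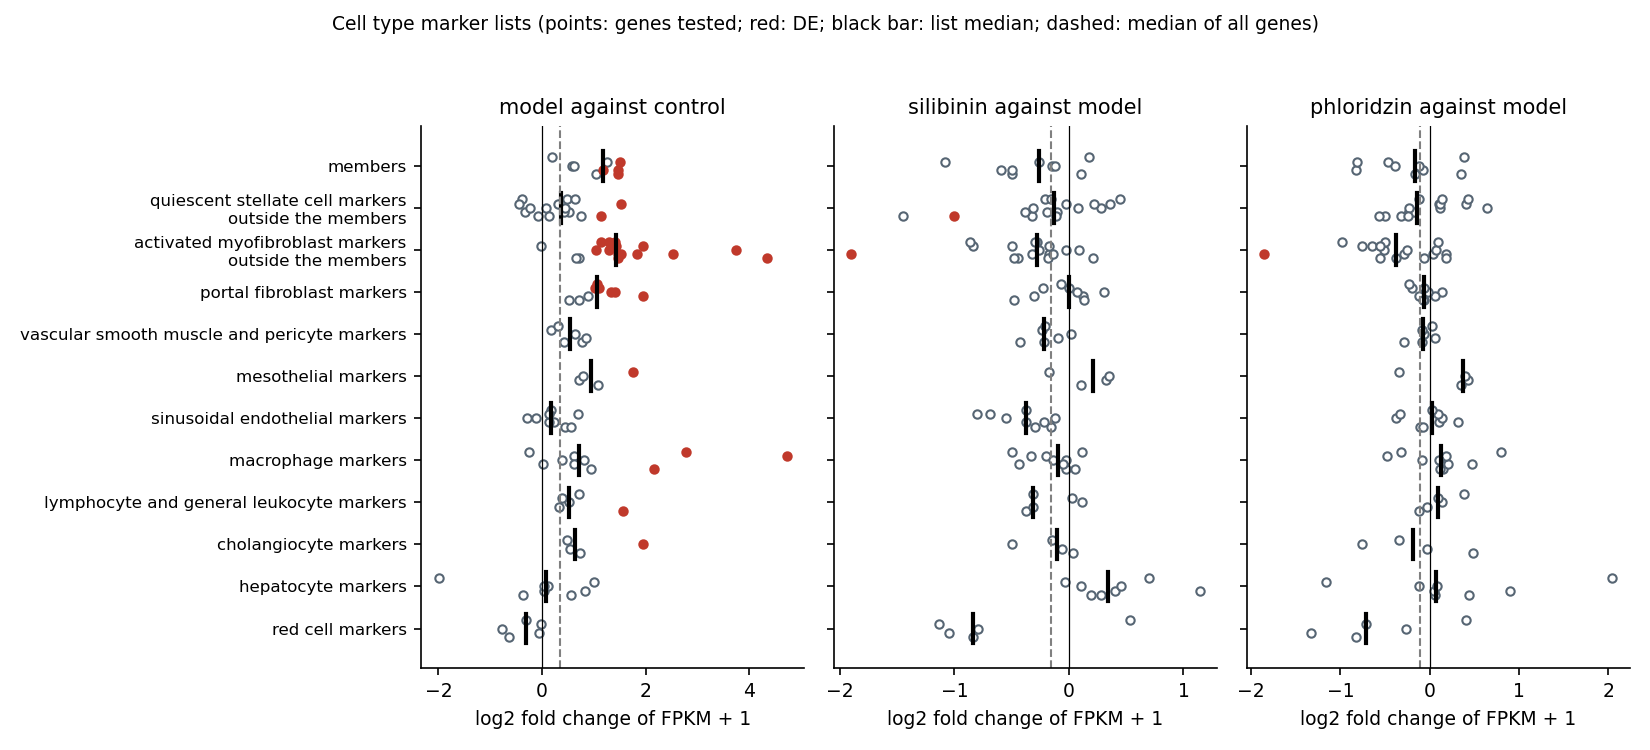
Log2 fold change on the log2(FPKM + 1) scale (horizontal axes) of each tested gene of the cell type marker lists, with the list median as a bar and DE genes in red, n = 3 livers per group. For model against control livers the median of the activated myofibroblast list lies to the right of that of all genes (dashed), and 14 of its 17 genes are red.

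The genes whose level over the 12 livers was most like that of each marker were sought by Pearson's r of log2(FPKM + 1) among 11610 genes with a mean of at least 1 FPKM, as a description with n = 12 livers of 4 groups. For Lrat they were Tex10 (0.982), Wnt4 (0.980) and Cyp2a22 (0.975), and for Pdgfra Cyp39a1 (0.987), Chst15 (0.951) and Rftn1 (0.951). Vim was most like Ucp2 (0.954), Arhgap15 (0.954) and Gnptab (0.947), and Tagln was most like Gucy1b1 (0.960), Ostf1 (0.957) and Fgl2 (0.953). For Acta2 they were Txlng (0.907), the myosin light chain gene Myl9 (0.880) and Msmo1 (0.879), and for Des Atp8a1 (0.960), the collagen gene Col16a1 (0.947) and Ncbp2 (0.943). Reln was most like Ncbp3 (0.941), Plekhg2 (0.938) and Frrs1 (0.937). Lower values were reached for Pdgfrb, with Tbc1d14 (0.870), Ncapg2 (0.853) and Chchd5 (0.829), and for Hgf, with Snapc2 (0.863), Zfp383 (0.853) and AC154335.1 (0.833).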

How the data were processed

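The authors deposited FPKM values of 169430 transcripts in 12 livers, made from total RNA libraries. The submitters' processing notes name bcl2fastq, FastQC 0.11.5, HISAT2 2.1.0, StringTie 1.3.3b, DESeq 1.28.0 and build mm10, without saying which step made each value. The strand setting is not given in the sources used here. The unit was read from the steps between values of long transcripts, which also gave the fragment numbers and library sizes of 83.7 to 110.9 M. Since the values are FPKM, the test planned for counts was not used.

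FPKM of all transcripts with the same symbol were summed per gene and liver. Genes with a mean of at least 0.5 were tested on log2(FPKM + 1) with limma (variance trend on), where all 12 livers and 4 groups entered the same model with 8 residual degrees of freedom. The p-values were two-sided and adjusted by the Benjamini-Hochberg method over 13158 genes in each of 6 comparisons. The fit was tested on simulated data. The 9 genes and the lists were chosen with earlier results of these data known. Named genes are all 9 markers, up to 4 DE genes per list and direction, the most abundant gene of a list, and the 3 genes most alike to each marker. Genes named outside this rule are Bco1, Col1a2, Met, Nes, those under the filter and the Hgf transcripts. Assembled transcripts without a symbol, 18991 in number, were not used.

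Alternatives were a pseudocount of 0.1, no filter and a mean of 1, median-ratio scaling, a fit of the 2 compared groups, the replicate number as a block, each liver left out, the leading transcript, voom on recovered fragments and no fold change threshold. Sums over Ensembl transcripts gave the same values, since only these carry a symbol. Same-strand NONCODE transcripts added to the sum, and scaling with no fold change threshold, were chosen after seeing the data. Analyses were run in R 4.3.3 (limma 3.58.1) and in Python 3.11.15 with pandas 2.3.3, numpy 2.4.6 and matplotlib 3.10.9.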

Additional observations from a re-analysis of the deposited data

How the results depend on the processing

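Of 1242 log2 fold changes of the 9 genes under an alternative, 1145 kept their direction and their side of the threshold, 55 no longer passed it, 11 newly passed it, and 31 changed sign, 0 of these with an adjusted p under 0.05 in limma (Benjamini-Hochberg). The cause was not tested. The number of DE markers in model against control livers was 4, 3 after median-ratio scaling (without Tagln), 5 by voom (with Des, 1.03, adjusted p = 0.00686, Benjamini-Hochberg; limma), and 4 to 5 when each liver was left out in turn. It was 0 in each of these for both drugs compared with the model group and with each other. With no fold change threshold, 1 marker (Lrat) was lower with phloridzin than in the model group, and 1 after scaling as well.

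Silibinin against control livers gave 2 DE markers. The number was 0 without a filter, 1 after median-ratio scaling, 1 in the fit of the 2 compared groups, 0 with the leading transcript, 3 with a pseudocount of 0.1 and 3 by voom (each with Lrat) and 4 with no fold change threshold, and ran from 0 to 3 when each liver was left out. Phloridzin against control livers gave 3. The number was 1 without a filter, 1 after median-ratio scaling, 0 in the fit of the 2 compared groups, 0 with the leading transcript, 2 by voom and 1 after scaling with no fold change threshold, and ran from 0 to 3 when each liver was left out.

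The replicate numbers only name the samples. Deviations from the group means correlated between -0.0909 and 0.101 over 18 pairs with the same number, and between -0.165 and 0.146 over 36 pairs with other numbers. With the replicate block 4 markers were DE in model against control livers, 2 in silibinin against control livers and 2 in phloridzin against control livers (Pdgfra, with an adjusted p of 0.0651 in limma by the Benjamini-Hochberg method, was not), and 0 in the other comparisons.

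Sign changes after median-ratio scaling were those of Pdgfrb for model against control (-0.0455), Des (0.0043) and Reln (0.0901) for silibinin against model, Tagln (0.0680) and Des (0.0035) for phloridzin against model, Des for phloridzin against silibinin (-0.00089), Hgf for silibinin against control (-0.00925) and Reln for phloridzin against control (-0.0375). Pdgfrb for model against control had -0.0713 with a pseudocount of 0.1 and -0.20 by voom. For phloridzin against silibinin Pdgfra had 0.23 with the leading transcript, and Hgf -0.0263 with NONCODE transcripts added.

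When each liver was left out, the signs of 12 fold changes were not kept. Pdgfrb ran from -0.162 to 0.701 for model against control, from -0.343 to 0.708 for silibinin against model, from -0.136 to 0.727 for phloridzin against model, from -0.328 to 0.669 for phloridzin against silibinin and from -0.104 to 0.893 for silibinin against control. Vim ran from -0.227 to 0.398 for silibinin against model and from -0.0991 to 0.662 for phloridzin against silibinin. For phloridzin against model Acta2 ran from -0.556 to 0.171 and Tagln from -0.292 to 0.226. Hgf ran from -0.115 to 0.860 for phloridzin against silibinin and from -0.411 to 0.773 for silibinin against control. Des ran from -0.0374 to 0.0766 for phloridzin against silibinin.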
